A study of Homo sapiens with 16 samples.

Results

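The comparison described here asked whether a high dose of DEL-22379 changed the same genes in 2 human anaplastic thyroid carcinoma lines. DEL-22379 is a small molecule described to prevent the dimerization of the extracellular signal-regulated kinases ERK1 and ERK2. CAL62 and 8505c are established cell lines. The 4 groups were CAL62 cells with 10 µM DEL-22379, CAL62 cells with the vehicle DMSO, 8505c cells with 10 µM DEL-22379 and 8505c cells with DMSO, each sampled after 24 h in medium with serum and each sequenced as 2 libraries. The sample labels give the doses in mM and the study's methods give them in µM, and µM is used here. The 16 libraries of the series also include both lines with a lower dose of DEL-22379, 1 µM, and with U0126 at 10 µM, which inhibits MEK, the kinase that activates ERK. The study's methods call the replicates of a group biological, without saying how their cultures were kept apart. The p-values below measure the spread between replicate libraries, pooled over all 16 libraries. Only these lines were compared, so the traits in which they differ cannot be told apart.

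A gene entered the comparison if its normalized count was 10 or more in at least 2 of the 4 libraries of each line, so that both lines could show a change. Of 60715 genes in the table, 14682 met this rule, of 19127 genes tested for which at least 2 of the 16 libraries reached 10. A further 4445 genes passed the test's filter but were not measured well enough in both lines. Values are counts divided by 1 size factor per library. The response of a line is the mean log2(value + 1) with 10 µM DEL-22379, called treated below, minus that with DMSO. The line difference is the CAL62 response minus the 8505c response, so it is positive where a gene rose more, or fell less, in CAL62 cells. Because 1 is added to each value, these log2 figures understate the change of genes with low counts. Differences and responses are given ± their standard error (n = 2 libraries per group), with p-values from limma that were adjusted after Benjamini and Hochberg across the full set of genes tested. The spread of a gene was estimated once over all 16 libraries, so both lines have the same standard error. A fit without 1 library also has fewer degrees of freedom. A difference was called at an adjusted p under 0.01 and a size above 1.5, and gene lists were counted at an adjusted p under 0.05.

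In the ERK pathway, receptor tyrosine kinases load RAS with GTP, RAS activates the RAF kinases, RAF activates MEK, and MEK activates ERK1 and ERK2. ERK signalling induces within minutes the immediate-early transcription factors of the FOS, JUN and EGR families, and, more slowly, its own brakes: the dual-specificity phosphatases (DUSP), the Sprouty proteins (SPRY) and the SPRED proteins. Lasting loss of pathway output is therefore often read from the mRNAs of DUSP, SPRY, SPRED and ETV genes. In thyroid cancers the pathway is commonly switched on by mutation. Both lines used here are dedifferentiated tumours.

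The 8 libraries held between 25683055 and 40589728 reads, recovered from the whole-number steps of the values. Replicates were farther apart in CAL62 cells than in 8505c cells. The Euclidean distance between replicates over genes tested, on the log2 scale, was 110.8 with 10 µM DEL-22379 and 125.9 with DMSO in CAL62 cells, against 94.6 with 10 µM DEL-22379 and 92.8 with DMSO in 8505c cells. Thyroid identity was partial in both lines. The thyroid transcription factor PAX8 lay between 7445 and 12449 in CAL62 libraries and between 64.1 and 129 in 8505c libraries, whereas NKX2-1 was at 0 in all CAL62 libraries and between 3765 and 5640 in 8505c libraries. The thyroid markers TSHR and DIO1 were at 0 in all 8 libraries. Of 7 leukocyte markers PTPRC was at 0 in all CAL62 libraries and between 2.35 and 6.49 in 8505c libraries. CD68 lay between 649 and 1341 in CAL62 libraries and between 2390.4 and 3710.3 in 8505c libraries, and CD14 between 28.1 and 211 in CAL62 libraries and between 16.4 and 36.5 in 8505c libraries.

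Large line differences were found in both directions. Of the 14682 genes, 400 were called, 189 higher and 211 lower in CAL62 cells. Over all genes tested the called shares were 1.22% higher and 1.27% lower. Of the 189, 174 are protein-coding and 8 are long noncoding RNAs, and of the 211, 199 are protein-coding and 9 are long noncoding. The typical gene differed little, with a median difference of -0.02 and an interquartile range from -0.49 to 0.42. At an adjusted p under 0.05 with no threshold on size, 1224 genes (8.34%) were higher and 1233 genes (8.40%) lower in CAL62 cells. When the libraries were instead scaled to equal totals, the median difference was -0.22, and 439 genes were then called, of which 29.2% were higher in CAL62 cells against 47.2% with the deposited scaling. With only the 8 libraries of the 4 groups in the fit 108 were called, 71 higher and 37 lower (65.7% higher). The count fell to 257 without replicate 2 of treated CAL62 cells. It fell to 214 without replicate 1 and 243 without replicate 2 of treated 8505c cells, and to 195 without replicate 1 and 199 without replicate 2 of 8505c cells with DMSO. Of the 400 called genes, 141 were called in every one of the 8 fits that left out 1 of these libraries, 70 of them higher and 71 lower in CAL62 cells, and none changed sign in any of the 8. In at least 1 line, 39 of the 400 reached the minimum of 10 only through the treated libraries or only through those with DMSO, as did 535 of the 14682 genes (3.64%). Such a gene had to differ to enter, so its values are given below as a description, with no p. Counting intervals given for such genes cover counting error only, and a ratio away from 1 was required by the filter. The list counts below include such genes. Without these genes 361 were called, 175 higher and 186 lower in CAL62 cells, of which 127 were called in all 8 fits.

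**Figure D1:**
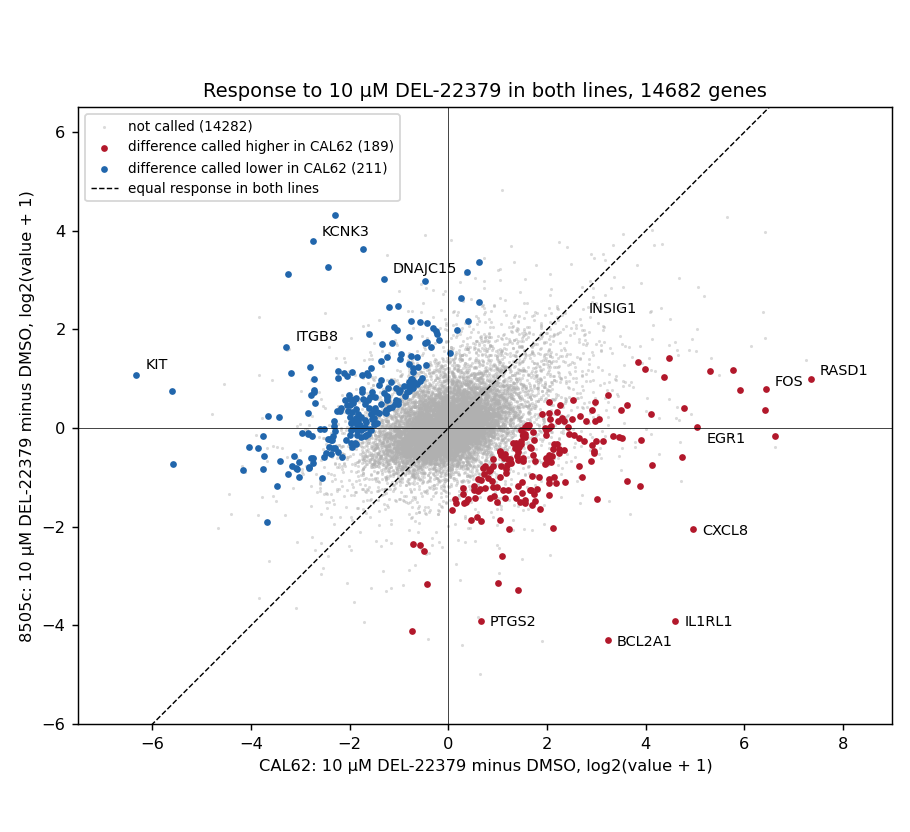
Response to 10 µM DEL-22379 in CAL62 cells (x axis) against the response in 8505c cells (y axis), each on the log2(value + 1) scale, for 14682 genes. The 189 genes called higher in CAL62 (red) lie below the dashed line of equal response and the 211 called lower (blue) lie above it.

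More genes moved in CAL62 cells than in 8505c cells at the same threshold. In CAL62 cells 2800 of the 14682 genes rose (19.1%) and 2982 fell (20.3%), and in 8505c cells 1160 rose (7.90%) and 1166 fell (7.94%). The counts of the lines were not tested against each other. Both lines were judged with the same standard error per gene, although replicates lay farther apart in CAL62 cells. The counts of the 2 lines are therefore not on an equal footing. Opposite responses were found for 170 genes, which passed the threshold in both lines in opposite directions and for the difference. Of these, 106 rose in CAL62 cells and fell in 8505c cells and 64 did the reverse. Over all genes tested that share was 0.936%. The count of 170 fell to 53 without replicate 1 of treated 8505c cells, to 73 without replicate 1 and 84 without replicate 2 of 8505c cells with DMSO, and to 77 with only the 8 libraries in the fit. It was 265 without replicate 1 of treated CAL62 cells. Among the 189 genes called higher, 58 were of this opposite kind, 106 rose in CAL62 cells and did not pass the threshold in 8505c cells, and 19 fell in 8505c cells and did not pass in CAL62 cells. Of the rest, 3 rose and 3 fell in both lines. Among the 211 called lower, 38 were opposite, 135 fell in CAL62 cells and did not pass in 8505c cells, and 31 rose in 8505c cells and did not pass in CAL62 cells. Of the rest, 6 fell and 1 rose in both lines.

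Most ERK feedback and output genes that passed the test were higher in CAL62 cells. Of 23 measured list members, 13 were higher in CAL62 cells and 1 was lower at an adjusted p under 0.05, where 8.34% of all compared genes were higher and 8.40% lower. The median difference of the list was 1.77, beside -0.02 over all genes compared. In CAL62 cells 12 of the 23 rose and 2 fell, and in 8505c cells none rose and 11 fell. The shares of all compared genes that rose and fell were 19.1% and 20.3% in CAL62 cells and 7.90% and 7.94% in 8505c cells. The 8505c count of 11 was 7 without replicate 1 of treated 8505c cells and 5 with the 1 µM libraries in place of DMSO. With equal library totals 11 were higher and 1 lower, and between 9 and 12 were higher when 1 of the 8 libraries was left out. The list was chosen with earlier results of these data known, so its direction is a description.

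FOSL1 encodes a partner of JUN in the AP-1 transcription factor and is a long-lived ERK target. Its normalized count was 17769.9 and 18099 in treated CAL62 cells, 9621 and 6128 in CAL62 cells with DMSO, 2963 and 3179 in treated 8505c cells and 12043 and 13302 in 8505c cells with DMSO. FOSL1 rose by 1.22 ± 0.26 in CAL62 cells and fell by 2.04 ± 0.26 in 8505c cells, a line difference of 3.27 ± 0.37 (adjusted p = 0.00033, limma). The sprouty gene SPRY4, a feedback inhibitor of receptor signalling, was at 3072 and 3164 in treated CAL62 cells, 1191 and 1081 in CAL62 cells with DMSO, 672 and 1114 in treated 8505c cells and 2513 and 2368 in 8505c cells with DMSO. Treated CAL62 libraries lay above both CAL62 libraries with DMSO, and treated 8505c libraries below both of theirs. SPRY4 rose by 1.46 ± 0.25 in CAL62 cells and fell by 1.49 ± 0.25 in 8505c cells, a line difference of 2.95 ± 0.36 (adjusted p = 0.00056, limma). EPHA2, an ephrin receptor whose gene responds to ERK, was at 28904 and 27205 in treated CAL62 cells, 13498 and 11574 in CAL62 cells with DMSO, 9752 and 10379 in treated 8505c cells and 17486 and 18034 in 8505c cells with DMSO. EPHA2 rose by 1.17 ± 0.13 in CAL62 cells and fell by 0.82 ± 0.13 in 8505c cells, a line difference of 1.99 ± 0.18 (adjusted p = 0.00012, limma). The groups did not overlap in either line, and the directions were opposite. SPRED2 and SPRED3, which restrain RAF activation, moved the same way, with differences of 1.77 ± 0.19 (adjusted p = 0.00022, limma) and 2.19 ± 0.29 (adjusted p = 0.00086). FOSL1, SPRY4, EPHA2, SPRED2 and SPRED3 were the 5 list members with opposite responses.

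DUSP5, a nuclear phosphatase of ERK, passed the threshold in CAL62 cells. Its values were 13682 and 11169 in treated CAL62 cells, 1484 and 1354 in CAL62 cells with DMSO, 2701 and 3661 in treated 8505c cells and 3468 and 4066 in 8505c cells with DMSO. DUSP5 rose by 3.12 ± 0.29 in CAL62 cells, its response of -0.26 ± 0.29 in 8505c cells did not pass, and the line difference was 3.38 ± 0.41 (adjusted p = 0.00056, limma). IER3, TMEM158 and PHLDA1 were also called higher, with differences of 2.80 ± 0.42, 3.26 ± 0.55 and 1.85 ± 0.30. IER3 was called in all 8 fits without 1 library. TMEM158 lost its call without replicate 2 of treated 8505c cells or either 8505c library with DMSO, and PHLDA1 without replicate 1 of treated 8505c cells or either 8505c library with DMSO. The classical output genes DUSP6 and ETV4 did not pass the test, with differences of 1.18 ± 0.38 (adjusted p = 0.057, limma) and 0.82 ± 0.48 (adjusted p = 0.27). CCND1, cyclin D1, also did not pass, at 0.15 ± 0.25 (95% interval from -0.39 to 0.70). SPRY1 was the 1 member that passed with a negative difference. It was at 19.1 and 22.7 in treated CAL62 cells, 124 and 79.4 in CAL62 cells with DMSO, 141 and 167 in treated 8505c cells and 128 and 114 in 8505c cells with DMSO. SPRY1 fell by 2.20 ± 0.31 in CAL62 cells, its response of 0.34 ± 0.31 in 8505c cells did not pass, and the line difference was -2.54 ± 0.43 (adjusted p = 0.0032, limma). SPRY1 was called in 3 of the 8 fits without 1 library (those without either treated CAL62 library or replicate 2 of CAL62 cells with DMSO), with differences from -2.86 to -2.22.

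**Figure D2:**
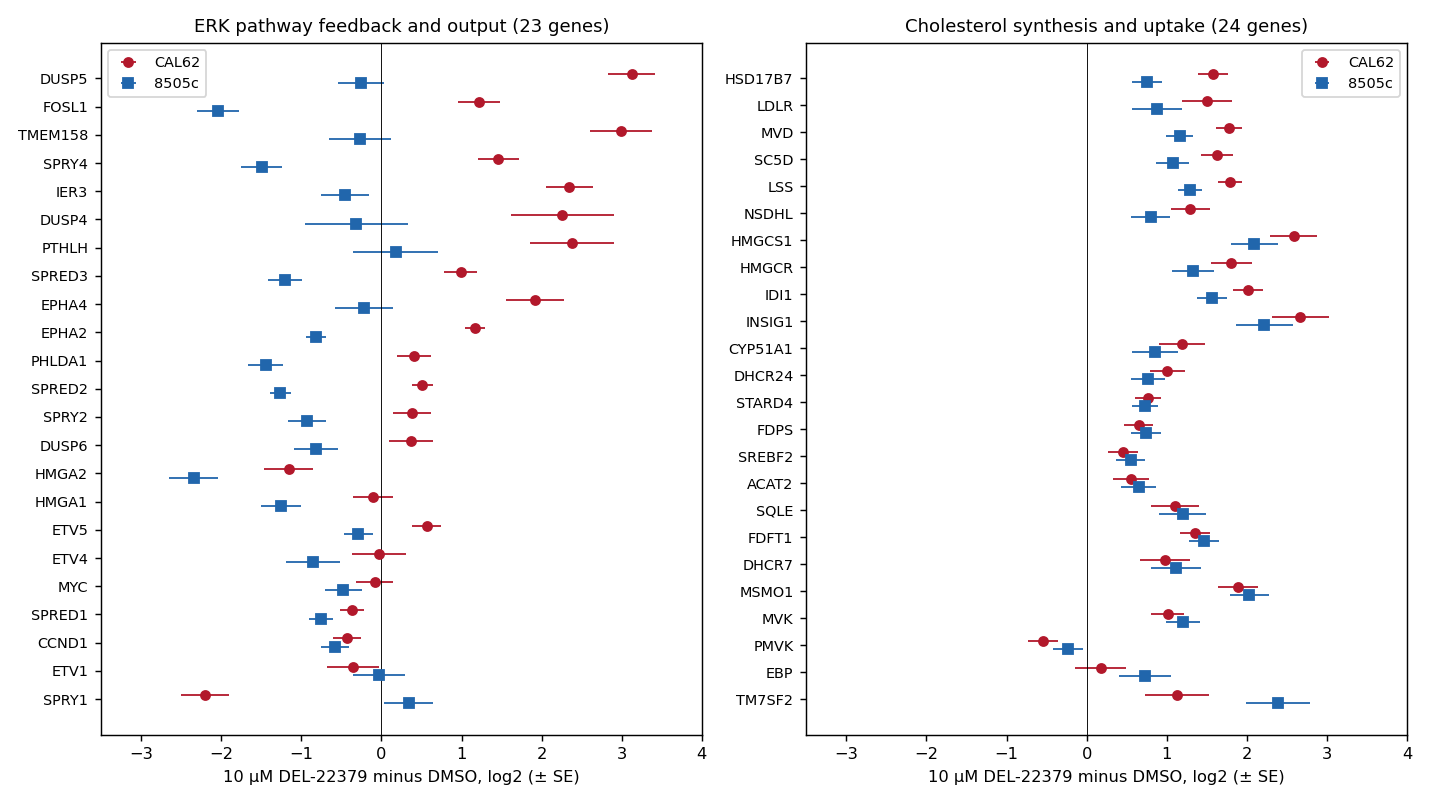
Responses to 10 µM DEL-22379 in CAL62 cells (red circles) and 8505c cells (blue squares) on the log2 scale, with standard errors from the fit, for 23 ERK feedback and output genes (left) and 24 genes of cholesterol synthesis and uptake (right), ordered by the line difference. The 2 lines separate in the first list, with a median difference of 1.77, and run together in the second, with a median difference of 0.14.

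The same genes gave other values with the MEK inhibitor, which shares the DMSO libraries with DEL-22379. With 1 µM DEL-22379 the median response of the 23 genes was 0.08 in CAL62 cells and -0.37 in 8505c cells, and with 10 µM DEL-22379 it was 0.51 in CAL62 cells and -0.75 in 8505c cells. With 10 µM U0126 it was -1.38 in CAL62 cells and -1.80 in 8505c cells. DUSP6 had responses to U0126 of -3.48 in CAL62 cells and -4.05 in 8505c cells, and SPRY4 had -3.73 and -4.00 in the same order.

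Most immediate-early transcription factors rose in CAL62 cells. Of 22 measured members 13 were higher in CAL62 cells and none lower, with a median difference of 2.56. In CAL62 cells 17 rose and none fell, and in 8505c cells 4 rose and 4 fell. Over all compared genes 19.1% rose and 20.3% fell in CAL62 cells, and 7.90% rose and 7.94% fell in 8505c cells. The 8505c counts rest on single libraries: none rose and 1 fell without replicate 1 of treated 8505c cells, 2 rose and 2 fell without replicate 2, 1 rose and 2 fell without replicate 1 of 8505c cells with DMSO, and 3 rose and 1 fell without replicate 2. With the 1 µM libraries in place of DMSO 1 rose and 2 fell. The count of 13 was the same with equal library totals and with the 1 µM libraries in place of DMSO, and ran from 13 to 17 when 1 of the 8 libraries was left out.

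JUN, an AP-1 subunit that was called in all 8 of these fits, was at 6634 and 12254 in treated CAL62 cells, 4048 and 4069 in CAL62 cells with DMSO, 2581 and 2601 in treated 8505c cells and 6957 and 6920.4 in 8505c cells with DMSO. JUN rose by 1.15 ± 0.20 in CAL62 cells and fell by 1.42 ± 0.20 in 8505c cells, a line difference of 2.57 ± 0.29 (adjusted p = 0.00031, limma). In both lines the treated and DMSO libraries of JUN did not overlap. KLF6, a zinc-finger factor, was at 7092 and 8511 in treated CAL62 cells, 1686 and 1831 in CAL62 cells with DMSO, 3443 and 4122 in treated 8505c cells and 4812 and 4613 in 8505c cells with DMSO. KLF6 rose by 2.14 ± 0.17 in CAL62 cells, its response of -0.32 ± 0.17 in 8505c cells did not pass, and the line difference was 2.47 ± 0.24 (adjusted p = 0.00014, limma). CSRNP1, a nuclear protein induced by AXIN1, and IER5, a regulator of heat shock factor HSF1, had differences of 2.55 ± 0.24 (adjusted p = 0.00013, limma) and 3.29 ± 0.31 (adjusted p = 0.00013). Both were called in all 8 fits without 1 library.

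FOS and EGR1 had far larger changes and far wider replicates. FOS, the founding AP-1 partner of JUN, was at 25799 and 104625 in treated CAL62 cells, 454 and 799 in CAL62 cells with DMSO, 247 and 148 in treated 8505c cells and 96.9 and 126.3 in 8505c cells with DMSO. Replicate 2 of treated CAL62 cells held several times the value of replicate 1, and both lay above all other libraries. FOS rose by 6.43 ± 0.64 in CAL62 cells, its response of 0.78 ± 0.64 in 8505c cells did not pass, and the line difference was 5.65 ± 0.91 (adjusted p = 0.0027, limma). FOS was called in 4 of the 8 fits without 1 library (those without replicate 1 of treated CAL62 cells, replicate 2 of treated CAL62 cells, replicate 2 of CAL62 cells with DMSO or replicate 1 of treated 8505c cells), with differences from 4.64 to 6.66. EGR1, a zinc-finger factor induced through serum response elements, was at 69316 and 214018 in treated CAL62 cells, 3328 and 4108 in CAL62 cells with DMSO, 793 and 439 in treated 8505c cells and 699 and 478 in 8505c cells with DMSO. EGR1 rose by 5.04 ± 0.62 in CAL62 cells, its response of 0.03 ± 0.62 in 8505c cells did not pass, and the line difference was 5.01 ± 0.88 (adjusted p = 0.0045, limma). EGR1 was called in 2 of the 8 fits without 1 library (those without replicate 1 of treated CAL62 cells or replicate 1 of treated 8505c cells), with differences from 4.20 to 5.82. In 8505c cells the treated and DMSO libraries of EGR1 overlapped. NR4A1, an orphan nuclear receptor, rose in both lines, with responses of 6.42 ± 0.70 in CAL62 cells and 3.97 ± 0.70 in 8505c cells and a difference that did not pass (adjusted p = 0.12, limma). JUND rose in both lines too, by 1.72 ± 0.30 in CAL62 cells and 1.21 ± 0.30 in 8505c cells.

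**Figure D3:**
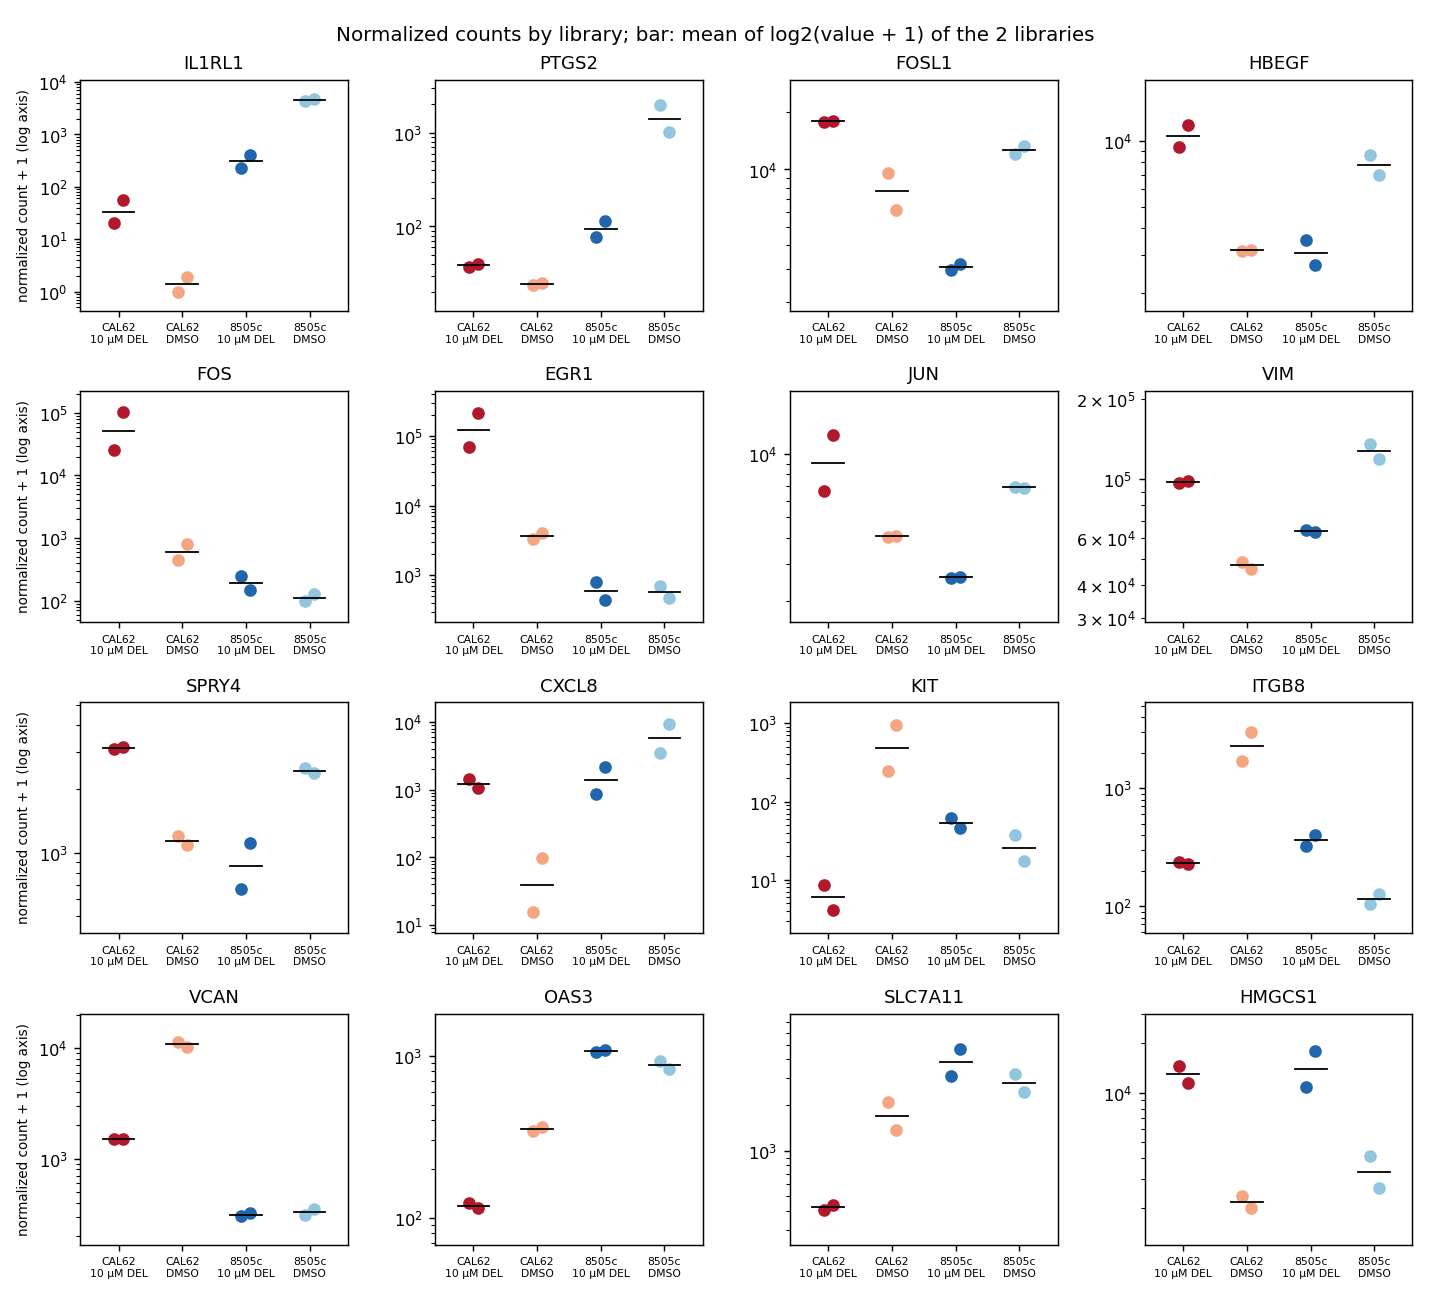
Normalized count plus 1 on a log axis in each of the 8 libraries for 16 genes, with CAL62 cells with 10 µM DEL-22379, CAL62 cells with DMSO, 8505c cells with 10 µM DEL-22379 and 8505c cells with DMSO set from left to right and a bar at the mean of log2(value + 1). FOS and EGR1 lie apart between the 2 treated CAL62 libraries, VIM and VCAN replicates nearly coincide, and HMGCS1 is higher in the treated libraries of both lines.

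FOS, JUN and FOSL1 proteins bind AP-1 elements, and the other 3 element types shown bind factors downstream of the same stimuli. Promoter sequences are shown for 5 genes called higher in CAL62 cells, picked because they hold such an element, of which IL1RL1 had to differ to be compared. Each is the 250 bases before the gene's start on the forward strand, from RefSeq on GRCh38.p14, written 5′ to 3′ in lower case with the matched element in capitals. IL1RL1 and CXCL8 hold the AP-1 motif TGANTCA, which ends 185 and 131 bases before their starts, AREG holds the cyclic AMP response element TGACGTCA, EGR1 holds 2 CArG boxes, the sites of serum response factor, and CXCL1 holds 2 overlapping NF-kB matches.
IL1RL1, chr2:102337007-102337256: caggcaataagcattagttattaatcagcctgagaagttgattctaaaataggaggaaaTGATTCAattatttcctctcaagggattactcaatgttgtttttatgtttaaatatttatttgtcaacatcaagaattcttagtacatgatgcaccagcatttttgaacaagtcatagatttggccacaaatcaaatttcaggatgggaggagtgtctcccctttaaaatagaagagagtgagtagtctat
CXCL8, chr4:73740319-73740568: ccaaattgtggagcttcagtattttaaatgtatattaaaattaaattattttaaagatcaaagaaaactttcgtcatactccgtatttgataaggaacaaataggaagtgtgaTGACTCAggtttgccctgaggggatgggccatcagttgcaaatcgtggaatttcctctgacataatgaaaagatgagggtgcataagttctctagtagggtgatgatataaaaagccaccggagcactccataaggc
AREG, chr4:74444886-74445135: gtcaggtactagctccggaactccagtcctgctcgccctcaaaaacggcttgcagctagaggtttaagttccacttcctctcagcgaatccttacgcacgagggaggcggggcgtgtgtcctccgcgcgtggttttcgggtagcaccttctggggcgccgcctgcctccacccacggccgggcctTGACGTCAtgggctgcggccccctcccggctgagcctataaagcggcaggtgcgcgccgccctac
EGR1, chr5:138465229-138465478: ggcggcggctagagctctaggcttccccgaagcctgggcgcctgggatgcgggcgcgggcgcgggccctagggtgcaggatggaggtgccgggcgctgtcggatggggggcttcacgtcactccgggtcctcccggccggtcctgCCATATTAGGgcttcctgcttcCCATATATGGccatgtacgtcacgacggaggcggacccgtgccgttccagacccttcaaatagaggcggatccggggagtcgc
CXCL1, chr4:73869143-73869392: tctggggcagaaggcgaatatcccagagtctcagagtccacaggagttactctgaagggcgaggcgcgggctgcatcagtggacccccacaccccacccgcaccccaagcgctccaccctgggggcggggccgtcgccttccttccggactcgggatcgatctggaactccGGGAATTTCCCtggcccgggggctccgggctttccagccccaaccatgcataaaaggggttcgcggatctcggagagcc
Over the promoters of called genes, the AP-1 motif on either strand was found in 18 of 144 genes called higher (12.5%), in 8 of 171 genes called lower (4.68%), in 395 of the 10292 compared genes with a promoter in the table (3.84%) and in 1801 of all 27305 promoters (6.60%). Besides IL1RL1 and CXCL8, the 18 included MMP10, TUBB3, SPRED3 and FST. The sets of 144 and 171 include genes that had to differ to be compared. IL1RL1 and MMP10 among the 18, and LINC02009 and DNAJC15 among the 8, are of this kind. The cyclic AMP response element was found in 6 of the 144 (4.17%), 1 of the 171 (0.585%), 296 of the 10292 (2.88%) and 482 of all (1.77%). The 6 included AREG, PPP1R15A, MAFF and EPHA2. CArG boxes were found in 1 of the 144, which was EGR1 (0.694%), 3 of the 171 (1.75%), 96 of the 10292 (0.933%) and 312 of all (1.14%). NF-kB matches were found in 13 of the 144 (9.03%), 9 of the 171 (5.26%), 608 of the 10292 (5.91%) and 1380 of all (5.05%). The AP-1 and cyclic AMP patterns cannot match at the same place. A match is a description of the letters in this window, and these shares were not tested.

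Ligands of the epidermal growth factor receptor EGFR went both ways. HBEGF, a membrane-anchored ligand shed by proteases, had the smallest p of the compared genes on the 28 lists, at 9335 and 11801 in treated CAL62 cells, 3142 and 3158 in CAL62 cells with DMSO, 3494 and 2694 in treated 8505c cells and 8568 and 7000.2 in 8505c cells with DMSO. HBEGF rose by 1.74 ± 0.15 in CAL62 cells and fell by 1.34 ± 0.15 in 8505c cells, a line difference of 3.07 ± 0.21 (adjusted p = 2.4e-05, limma). The groups did not overlap in either line, and HBEGF rose in CAL62 cells and fell in 8505c cells. AREG, amphiregulin, another ligand, was at 463 and 436 in treated CAL62 cells, 25.4 and 34.2 in CAL62 cells with DMSO, 2056 and 1998 in treated 8505c cells and 4948 and 4273 in 8505c cells with DMSO. AREG rose by 3.88 ± 0.64 in CAL62 cells, its response of -1.18 ± 0.64 in 8505c cells did not pass, and the line difference was 5.07 ± 0.91 (adjusted p = 0.0047, limma). AREG was called in none of the 8 fits without 1 library, with differences from 4.86 to 5.27. Its replicates lay close together in these groups, while the standard error was pooled over all 16 libraries. Of the 8 measured ligands of the EGFR family and KIT, neuregulins included, 2 were higher and 3 lower in CAL62 cells at an adjusted p under 0.05. The 3 lower were EGF (-2.60 ± 0.71), NRG1 (-1.66 ± 0.43) and BTC (-1.37 ± 0.36). None of the 8 was lower without replicate 2 of treated CAL62 cells, replicate 2 of CAL62 cells with DMSO, either treated 8505c library or replicate 1 of 8505c cells with DMSO, and 1 was without replicate 2 of 8505c cells with DMSO.

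Receptor genes also moved in both directions. KIT, the receptor for stem cell factor, had the most negative difference of all compared genes. It was at 7.66 and 3.1 in treated CAL62 cells, 244 and 934 in CAL62 cells with DMSO, 61.1 and 45.5 in treated 8505c cells and 36.5 and 16.2 in 8505c cells with DMSO. KIT had fitted responses of -6.33 ± 0.70 in CAL62 cells and 1.08 ± 0.70 in 8505c cells, and their difference was -7.41 ± 0.98. The treated CAL62 libraries held few reads, so the size depends on the added 1. Its ligand gene KITLG did not pass, at 1.18 ± 0.44 (adjusted p = 0.095, limma). FGFR1 was at 3038 and 2904 in treated CAL62 cells, 942 and 1296 in CAL62 cells with DMSO, 3283 and 3135 in treated 8505c cells and 4416 and 3979 in 8505c cells with DMSO. FGFR1 rose by 1.43 ± 0.20 in CAL62 cells, its response of -0.39 ± 0.20 in 8505c cells did not pass, and the line difference was 1.81 ± 0.28 (adjusted p = 0.0018, limma). FGFR1 lost its call without replicate 1 of 8505c cells with DMSO (1.74) and kept it in the other 7 of the 8 fits without 1 library. DDR2, a collagen receptor, had a difference of 2.93 ± 0.53. DDR2 was called in 2 of the 8 fits without 1 library (those without replicate 1 of treated CAL62 cells or replicate 2 of CAL62 cells with DMSO), with differences from 2.25 to 3.60. Of 16 measured receptors 3 were higher and 5 lower, the 5 including KIT, which had to differ to enter. The count of 5 fell to 2 without replicate 2 of treated CAL62 cells, replicate 1 of CAL62 cells with DMSO or replicate 1 of treated 8505c cells. It fell to 3 without replicate 1 and to 1 without replicate 2 of 8505c cells with DMSO. EGFR itself fell in both lines, by 0.50 ± 0.11 in CAL62 cells and 0.67 ± 0.11 in 8505c cells, and its difference of 0.17 had a 95% interval from -0.18 to 0.52. Of 25 measured genes of the MAP kinase cascade itself 5 were higher and none lower, and none was called. Equal library totals turned this to 1 higher and 3 lower. The count of 5 fell to 1 without replicate 2 of treated CAL62 cells, replicate 1 of treated 8505c cells or replicate 2 of 8505c cells with DMSO. It was 2 without replicate 1 and 3 without replicate 2 of CAL62 cells with DMSO, 3 without replicate 1 of 8505c cells with DMSO and 8 without replicate 2 of treated 8505c cells.

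Of 25 listed chemokine and inflammatory genes 10 were measured in both lines, and of these 6 were higher in CAL62 cells, none was lower and 4 did not pass, with a median difference of 2.73. The count was 5 or 6 in each of the 8 fits without 1 library, but 1, with a median of 1.54, when the 1 µM libraries took the place of DMSO. Those libraries hold the same drug, and the median response of this list to 1 µM was 0.26 in CAL62 cells and -0.44 in 8505c cells. PTGS2, cyclooxygenase 2, was at 35.7 and 39.2 in treated CAL62 cells, 22.8 and 24 in CAL62 cells with DMSO, 76.4 and 114 in treated 8505c cells and 1962 and 1015 in 8505c cells with DMSO. The response of PTGS2 in CAL62 cells, 0.66 ± 0.37, did not pass, whereas it fell by 3.90 ± 0.37 in 8505c cells, a line difference of 4.56 ± 0.52 (adjusted p = 0.00033, limma). The 8505c groups were far apart, and the CAL62 groups did not overlap but lay close together. CXCL8, interleukin 8, was at 1417 and 1046 in treated CAL62 cells, 14.7 and 96.9 in CAL62 cells with DMSO, 864 and 2184 in treated 8505c cells and 3469 and 9401 in 8505c cells with DMSO. The groups did not overlap in either line, but replicates differed several-fold in all groups except treated CAL62 cells. CXCL8 rose by 4.96 ± 0.97 in CAL62 cells, its response of -2.05 ± 0.97 in 8505c cells did not pass, and the line difference was 7.01 ± 1.37 (adjusted p = 0.0082, limma). CXCL8 was called in 1 of the 8 fits without 1 library (that without replicate 2 of CAL62 cells with DMSO), with differences from 5.69 to 8.33. CXCL1, a neutrophil chemokine, was at 1468 and 507 in treated CAL62 cells, 115 and 341 in CAL62 cells with DMSO, 606 and 1149 in treated 8505c cells and 3080.2 and 3805 in 8505c cells with DMSO. CXCL1 rose by 2.12 ± 0.58 in CAL62 cells and fell by 2.03 ± 0.58 in 8505c cells, a line difference of 4.15 ± 0.82 (adjusted p = 0.0076, limma). CXCL1 was called in 2 of the 8 fits without 1 library (those without replicate 2 of treated CAL62 cells or replicate 2 of CAL62 cells with DMSO), with differences from 3.37 to 4.93. CXCL2 rose in both lines, by 1.38 ± 0.26 in CAL62 cells and 1.00 ± 0.26 in 8505c cells.

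IL1RL1, the receptor of interleukin 33, had the largest positive difference. It was at 19.1 and 54.7 in treated CAL62 cells, 0 and 0.92 in CAL62 cells with DMSO, 233 and 407 in treated 8505c cells and 4397 and 4836 in 8505c cells with DMSO. IL1RL1 had fitted responses of 4.60 ± 0.65 in CAL62 cells and -3.90 ± 0.65 in 8505c cells, and their difference was 8.50 ± 0.92. Since CAL62 cells with DMSO held 1 read in both libraries together, the fitted size depends on the added 1: the ratio of treated to DMSO CAL62 cells was 69.4 with a 95% counting interval from 12.0 to 2781. IL1RL1 entered in CAL62 cells through the treated libraries only, so a high ratio was required there. In 8505c cells the mean was 319.7 with treatment, against 4617 with DMSO. NF-kB subunits and their feedback targets had 8 of 19 higher and none lower, with a median difference of 0.89, or 5 of 19 with the 1 µM libraries in place of DMSO. Only NFKB2, which encodes the p100 precursor, was called. It was at 3516 and 4054 in treated CAL62 cells, 787 and 1048 in CAL62 cells with DMSO, 829.8 and 851 in treated 8505c cells and 655 and 826 in 8505c cells with DMSO. NFKB2 rose by 2.05 ± 0.19 in CAL62 cells, its response of 0.19 ± 0.19 in 8505c cells did not pass, and the line difference was 1.86 ± 0.27 (adjusted p = 0.0013, limma). RELA rose in CAL62 cells by 0.67 ± 0.10, with a difference of 0.89 ± 0.14 (adjusted p = 0.0018, limma). ICAM1, an adhesion molecule and NF-kB target, rose in both lines and is described with the shared responses.

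Mesenchymal genes were split. VIM, the intermediate filament vimentin, was at 97283 and 98481 in treated CAL62 cells, 48949 and 46076 in CAL62 cells with DMSO, 64275 and 63137 in treated 8505c cells and 135663 and 119758 in 8505c cells with DMSO. VIM rose by 1.04 ± 0.13 in CAL62 cells and fell by 1.00 ± 0.13 in 8505c cells, a line difference of 2.04 ± 0.18 (adjusted p = 0.00011, limma). The groups did not overlap in either line and the directions were opposite. ZEB1, a repressor of epithelial genes, was at 2071 and 1850.3 in treated CAL62 cells, 1093 and 1075 in CAL62 cells with DMSO, 905 and 1224 in treated 8505c cells and 1792 and 1935 in 8505c cells with DMSO. ZEB1 rose by 0.85 ± 0.13 in CAL62 cells and fell by 0.82 ± 0.13 in 8505c cells, a line difference of 1.67 ± 0.19 (adjusted p = 0.00034, limma). ZEB1 lost its call without replicate 1 of treated 8505c cells (1.46) and kept it in the other 7 of the 8 fits without 1 library. SNAI1, a related repressor, was at 4559 and 22119.5 in treated CAL62 cells, 146 and 232 in CAL62 cells with DMSO, 150.4 and 112 in treated 8505c cells and 53.6 and 60.5 in 8505c cells with DMSO. SNAI1 rose by 5.76 ± 0.57 in CAL62 cells, its response of 1.18 ± 0.57 in 8505c cells did not pass, and the line difference was 4.59 ± 0.80 (adjusted p = 0.0037, limma). SNAI1 was called in 3 of the 8 fits without 1 library (those without replicate 1 of treated CAL62 cells, replicate 2 of treated CAL62 cells or replicate 2 of CAL62 cells with DMSO), with differences from 3.45 to 5.73. SNAI2 did not reach the call, at 4.07 ± 1.03 (adjusted p = 0.023, limma). FN1, fibronectin, was at 9031 and 17530.2 in treated CAL62 cells, 29834 and 108890 in CAL62 cells with DMSO, 22425 and 41432 in treated 8505c cells and 39311 and 40180.2 in 8505c cells with DMSO. It fell in CAL62 cells, by 2.18 ± 0.53, where the libraries with DMSO lay far apart, and its difference of -1.80 ± 0.75 did not pass (adjusted p = 0.13). The differences of CDH2, N-cadherin, and CTNNB1, beta-catenin, did not pass either, at -0.56 ± 0.24 and -0.07 ± 0.20. Of 15 measured members 4 were higher and none lower. The 7 epithelial markers, of which 6 reached 10 in CAL62 cells, summed to between 25532 and 33336 in treated CAL62 cells, against 50960 to 85562 in CAL62 cells with DMSO. In 8505c cells they summed to between 80252 and 98058 with treatment, against 69937 to 83742 with DMSO, ranges that overlap. The sums were mostly KRT7, KRT8 and KRT18, each lower in the treated than in the DMSO libraries of CAL62 cells. EPCAM overlapped there, at 2310 and 1684 with treatment and 2064 and 2276 with DMSO. The part of these markers in the mesenchymal result was not tested.

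Several matrix and adhesion genes were lower in CAL62 cells. VCAN, the proteoglycan versican, was at 1493 and 1491 in treated CAL62 cells, 11311 and 10289 in CAL62 cells with DMSO, 301 and 321 in treated 8505c cells and 312 and 352 in 8505c cells with DMSO. VCAN fell by 2.85 ± 0.17 in CAL62 cells, its response of -0.09 ± 0.17 in 8505c cells did not pass, and the line difference was -2.76 ± 0.24 (adjusted p = 0.00012, limma). VCAN replicates were nearly equal in all groups. MMP16, a membrane-type matrix metalloprotease, was at 142 and 93.9 in treated CAL62 cells, 1215 and 997 in CAL62 cells with DMSO, 1074 and 1368 in treated 8505c cells and 2615 and 2043 in 8505c cells with DMSO. MMP16 fell by 3.24 ± 0.20 in CAL62 cells and by 0.93 ± 0.20 in 8505c cells, a line difference of -2.31 ± 0.28 (adjusted p = 0.00057, limma). ITGB8, the integrin subunit that activates latent TGF-beta, was at 237 and 226 in treated CAL62 cells, 1708 and 2997 in CAL62 cells with DMSO, 326 and 403 in treated 8505c cells and 104 and 126.3 in 8505c cells with DMSO. ITGB8 fell by 3.28 ± 0.35 in CAL62 cells and rose by 1.65 ± 0.35 in 8505c cells, a line difference of -4.94 ± 0.49 (adjusted p = 0.00017, limma). It fell in CAL62 cells and rose in 8505c cells with no overlap, and was called in all 8 fits without 1 library. PCDH7, a protocadherin, had a difference of -2.05 ± 0.31. PCDH7 lost its call without replicate 1 of 8505c cells with DMSO (-2.01) and kept it in the other 7 of the 8 fits without 1 library. CCN3, a matricellular protein, had -2.45 ± 0.51 but was not called in any of the 8 fits without 1 library, in which the differences ran from -2.83 to -2.07. Of 17 matricellular and glycoprotein genes 4 were lower and 1 higher, and of 12 cadherin family genes 3 were lower and none higher, with median differences of -0.47 and -0.78. The higher gene was THBS1 (4.02 ± 1.14), and no gene of the list was higher in 7 of the 8 fits without 1 library, the exception being the fit without replicate 2 of CAL62 cells with DMSO. The count of 3 cadherins fell to 2 without replicate 1 of CAL62 cells with DMSO and to 1 without replicate 2 of treated CAL62 cells, replicate 2 of treated 8505c cells or replicate 2 of 8505c cells with DMSO. The fibroblast markers, mostly COL1A1, summed to between 1986 and 3733 in treated CAL62 cells, against 5561 to 13774 in CAL62 cells with DMSO. Their part in these values was not tested.

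Other matrix genes went the opposite way. COL17A1, a collagen of hemidesmosomes, was at 106 and 94.9 in treated CAL62 cells, 50.9 and 42.5 in CAL62 cells with DMSO, 89.3 and 94.2 in treated 8505c cells and 643 and 487 in 8505c cells with DMSO. COL17A1 rose by 1.09 ± 0.24 in CAL62 cells and fell by 2.60 ± 0.24 in 8505c cells, a line difference of 3.69 ± 0.35 (adjusted p = 0.00013, limma). MMP1, interstitial collagenase, was at 176 and 334 in treated CAL62 cells, 14.7 and 24 in CAL62 cells with DMSO, 401564 and 299699 in treated 8505c cells and 938753 and 572328 in 8505c cells with DMSO. MMP1 rose by 3.62 ± 0.37 in CAL62 cells, its response of -1.08 ± 0.37 in 8505c cells did not pass, and the line difference was 4.70 ± 0.52 (adjusted p = 0.00034, limma). All 8505c libraries exceeded all CAL62 libraries by far. MMP10, stromelysin 2, was at 28.1 and 55.7 in treated CAL62 cells, 1.34 and 0 in CAL62 cells with DMSO, 14.1 and 21.9 in treated 8505c cells and 21.6 and 33.5 in 8505c cells with DMSO. Treated CAL62 cells held 77.6 times as much as CAL62 cells with DMSO, on 76 reads against 1 read (95% counting interval 13.5 to 3104). MMP10 had fitted responses of 4.73 ± 0.61 in CAL62 cells and -0.59 ± 0.61 in 8505c cells, and their difference was 5.32 ± 0.87. Of 16 proteases and inhibitors 5 were higher and 2 lower, the lower being MMP16 and MMP11. The 5 include MMP10 and MMP19, which had to differ to enter. SERPINE2, a protease inhibitor, and ITGA2, a collagen-binding integrin subunit, were called at 2.53 ± 0.41 and 2.36 ± 0.50. SERPINE2 was called in 3 of the 8 fits without 1 library (those without replicate 1 of treated CAL62 cells, replicate 2 of treated CAL62 cells or replicate 2 of CAL62 cells with DMSO), with differences from 2.17 to 2.88. ITGA2 was called in 1 of the 8 fits without 1 library (that without replicate 2 of CAL62 cells with DMSO), with differences from 1.84 to 2.88.

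Some interferon-stimulated genes fell in CAL62 cells. OAS3, which makes the activator of RNase L, was at 123 and 114 in treated CAL62 cells, 343 and 360 in CAL62 cells with DMSO, 1048 and 1082 in treated 8505c cells and 925 and 832 in 8505c cells with DMSO. OAS3 fell by 1.57 ± 0.12 in CAL62 cells, its response of 0.28 ± 0.12 in 8505c cells did not pass, and the line difference was -1.85 ± 0.17 (adjusted p = 0.00013, limma). IFIH1, the RNA sensor MDA5, was at 3.83 and 7.22 in treated CAL62 cells, 66.9 and 106 in CAL62 cells with DMSO, 55.2 and 50.3 in treated 8505c cells and 58.1 and 59.4 in 8505c cells with DMSO. IFIH1 had fitted responses of -3.76 ± 0.37 in CAL62 cells and -0.15 ± 0.37 in 8505c cells, and their difference was -3.61 ± 0.52. BST2, tetherin, was at 3769 and 4665 in treated CAL62 cells, 6867 and 6916 in CAL62 cells with DMSO, 82.3 and 106 in treated 8505c cells and 38.7 and 45.3 in 8505c cells with DMSO. BST2 fell by 0.72 ± 0.17 in CAL62 cells and rose by 1.14 ± 0.17 in 8505c cells, a line difference of -1.86 ± 0.24 (adjusted p = 0.00075, limma). BST2 was far more abundant in CAL62 libraries than in 8505c libraries. OAS3 and BST2 were called in all 8 fits without 1 library. Of 24 measured genes 5 were lower and 1 higher in CAL62 cells, with a median of -0.71, and 18 did not pass. The 5 include IFIH1, which had to differ to enter. The higher gene was ISG20 (2.26 ± 0.55), and none was higher without replicate 1 of treated 8505c cells or replicate 2 of 8505c cells with DMSO, 2 were without replicate 1 of treated CAL62 cells and 3 without replicate 2 of CAL62 cells with DMSO. IFIT1 was also called (-3.49 ± 0.68). IFIT1 was called in 1 of the 8 fits without 1 library (that without replicate 1 of CAL62 cells with DMSO), with differences from -4.18 to -2.81.

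Few stress genes passed the test. PPP1R15A, also known as GADD34, which directs dephosphorylation of the initiation factor eIF2alpha, was at 37369 and 57802 in treated CAL62 cells, 3711 and 4793 in CAL62 cells with DMSO, 6364 and 4557 in treated 8505c cells and 6704 and 5602 in 8505c cells with DMSO. PPP1R15A rose by 3.46 ± 0.25 in CAL62 cells, its response of -0.19 ± 0.25 in 8505c cells did not pass, and the line difference was 3.65 ± 0.35 (adjusted p = 0.00014, limma). ATF4, the transcription factor of the integrated stress response, was also higher, at 1.41 ± 0.28 (adjusted p = 0.0072, limma). SLC7A11, the cystine transporter, was at 406 and 439 in treated CAL62 cells, 2102 and 1359 in CAL62 cells with DMSO, 3116 and 4709 in treated 8505c cells and 3182 and 2441 in 8505c cells with DMSO. SLC7A11 fell by 2.00 ± 0.29 in CAL62 cells, its response of 0.46 ± 0.29 in 8505c cells did not pass, and the line difference was -2.46 ± 0.40 (adjusted p = 0.0027, limma). SLC7A11 lost its call without replicate 2 of treated 8505c cells (-2.16) or replicate 2 of 8505c cells with DMSO (-2.27) and kept it in the other 6 of the 8 fits without 1 library. PPP1R15A and SLC7A11, both known ATF4 targets, thus moved in opposite directions in CAL62 cells. Of 29 genes of this list 3 were higher and 3 lower, near the 8.34% and 8.40% of all compared genes, or 6 and 5 without replicate 1 of treated CAL62 cells, and the median of 0.14 turned to -0.06 with equal library totals. The inducible heat shock protein gene HSPA6 was at 235 and 1722 in treated CAL62 cells, 4.01 and 10.2 in CAL62 cells with DMSO, 47 and 84.4 in treated 8505c cells and 14.8 and 19.4 in 8505c cells with DMSO. Replicate 2 of treated CAL62 cells stood far above replicate 1. Of 24 heat shock and co-chaperone genes 4 were higher and 2 lower, but 10 were higher without replicate 1 of treated CAL62 cells and between 0 and 2 without each of the other 7 libraries. With equal library totals 2 were higher and 4 lower.

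Among the p53-responsive genes and the BCL2 family, the differences that passed were positive with the deposited scaling. PMAIP1, which encodes the BH3-only protein NOXA, was at 2174 and 3607 in treated CAL62 cells, 902 and 1101 in CAL62 cells with DMSO, 503 and 585 in treated 8505c cells and 1295 and 1424 in 8505c cells with DMSO. PMAIP1 rose by 1.49 ± 0.24 in CAL62 cells and fell by 1.32 ± 0.24 in 8505c cells, a line difference of 2.81 ± 0.33 (adjusted p = 0.00047, limma). MCL1, the survival protein that NOXA binds, was at 18315 and 16519.9 in treated CAL62 cells, 9330.5 and 9133 in CAL62 cells with DMSO, 5486 and 7132 in treated 8505c cells and 10496 and 10894 in 8505c cells with DMSO. MCL1 rose by 0.91 ± 0.13 in CAL62 cells and fell by 0.77 ± 0.13 in 8505c cells, a line difference of 1.69 ± 0.18 (adjusted p = 0.00025, limma). MCL1 lost its call without replicate 1 of treated 8505c cells (1.498) and kept it in the other 7 of the 8 fits without 1 library. PMAIP1 and MCL1 both rose in CAL62 cells and fell in 8505c cells, with no overlap. BCL2A1, another survival protein, was at 10.2 and 17.5 in treated CAL62 cells, 1.34 and 0 in CAL62 cells with DMSO, 0 and 0 in treated 8505c cells and 17.1 and 20.5 in 8505c cells with DMSO. BCL2A1 had to differ in both lines to enter. It had fitted responses of 3.24 ± 0.63 in CAL62 cells and -4.30 ± 0.63 in 8505c cells, and their difference was 7.54 ± 0.90. Its counts were low: treated 8505c cells had 0 reads, at least 6.31-fold lower than with DMSO when set against a floor of 3 reads per library, and treated CAL62 cells held 25.5 times the DMSO level, on 25 reads against 1 read (95% counting interval 4.18 to 1048). GADD45A, a stress sensor, was at 1224 and 2174 in treated CAL62 cells, 670.5 and 738 in CAL62 cells with DMSO, 545 and 475 in treated 8505c cells and 1345 and 1093 in 8505c cells with DMSO. GADD45A rose by 1.21 ± 0.24 in CAL62 cells and fell by 1.25 ± 0.24 in 8505c cells, a line difference of 2.46 ± 0.35 (adjusted p = 0.0011, limma). CDKN1A, the inhibitor p21, rose in CAL62 cells by 4.27 ± 0.65, but its difference of 4.06 ± 0.91 did not reach the call (adjusted p = 0.014, limma). Of 24 genes of the p53 list 7 were higher and none lower. With equal totals 5 were higher and 1 lower. The count of 7 fell to 4 without replicate 2 of treated CAL62 cells and without either 8505c library with DMSO. MDM2, the p53 ubiquitin ligase, was higher by 0.74 ± 0.20 (adjusted p = 0.031, limma), short of the size for a call.

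Many replication genes fell in CAL62 cells. Of 34 measured G1/S and replication genes 24 fell and none rose in CAL62 cells, where 20.3% of all compared genes fell. In 8505c cells 3 fell and none rose, near the 7.94% of all compared genes that fell there. The 8505c count was 0 without replicate 1 of treated 8505c cells or replicate 2 of 8505c cells with DMSO, 1 without replicate 1 of 8505c cells with DMSO, and 6 or 7 without any 1 of the CAL62 libraries. The difference passed for 5, all lower in CAL62 cells, with a median of -0.52 that was -0.73 with equal library totals. E2F2, an activator of S phase genes, was at 109.8 and 123 in treated CAL62 cells, 574 and 393 in CAL62 cells with DMSO, 451 and 484 in treated 8505c cells and 266 and 319.6 in 8505c cells with DMSO. E2F2 fell by 2.02 ± 0.28 in CAL62 cells, its response of 0.68 ± 0.28 in 8505c cells did not pass, and the line difference was -2.70 ± 0.39 (adjusted p = 0.0014, limma). MCM6, a subunit of the replicative helicase, was at 1039 and 747 in treated CAL62 cells, 3763 and 2880.2 in CAL62 cells with DMSO, 2526 and 3036 in treated 8505c cells and 3090.4 and 3772 in 8505c cells with DMSO. MCM6 fell by 1.90 ± 0.23 in CAL62 cells, its response of -0.30 ± 0.23 in 8505c cells did not pass, and the line difference was -1.60 ± 0.32 (adjusted p = 0.0074, limma). MCM6 was called in 2 of the 8 fits without 1 library (those without replicate 1 of treated CAL62 cells or replicate 2 of CAL62 cells with DMSO), with differences from -1.84 to -1.36. Of 32 G2/M genes 8 fell and 1 rose in CAL62 cells, where 20.3% of all compared genes fell, 1 rose and none fell in 8505c cells, and the difference passed only for KIF20A, a mitotic kinesin (-1.93 ± 0.39). KIF20A was called in 2 of the 8 fits without 1 library (those without replicate 1 of treated CAL62 cells or replicate 2 of CAL62 cells with DMSO), with differences from -2.29 to -1.56. The 8 that fell in CAL62 cells were 1 without replicate 2 of treated CAL62 cells or replicate 1 of CAL62 cells with DMSO, 14 without replicate 1 of treated CAL62 cells and 23 without replicate 2 of CAL62 cells with DMSO. The G2/M count of differences was 2 without replicate 1 of treated CAL62 cells, 4 without replicate 2 of CAL62 cells with DMSO and 3 with equal library totals, and the G1/S count rose to 11 without replicate 2 of CAL62 cells with DMSO and with equal library totals. CDKN2C, the CDK4 and CDK6 inhibitor p18, was at 337 and 373 in treated CAL62 cells, 1447 and 1076 in CAL62 cells with DMSO, 991 and 1088 in treated 8505c cells and 925 and 1151 in 8505c cells with DMSO. CDKN2C fell by 1.81 ± 0.17 in CAL62 cells, its response of 0.01 ± 0.17 in 8505c cells did not pass, and the line difference was -1.82 ± 0.24 (adjusted p = 0.00075, limma). It was called in all 8 fits without 1 library. The tubulin genes TUBB2A and TUBB3 rose in CAL62 cells, with differences of 2.87 ± 0.51 and 2.65 ± 0.55. TUBB2A was called in 3 of the 8 fits without 1 library (those without replicate 1 of treated CAL62 cells, replicate 2 of treated CAL62 cells or replicate 2 of CAL62 cells with DMSO), with differences from 2.11 to 3.63. TUBB3 was called in 2 of the 8 fits without 1 library (those without replicate 1 of treated CAL62 cells or replicate 2 of CAL62 cells with DMSO), with differences from 1.94 to 3.36.

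Some of the largest differences lay outside these lists. LINC02009, a long noncoding RNA, was at 29.4 and 54.7 in treated CAL62 cells, 349 and 436 in CAL62 cells with DMSO, 83.5 and 52 in treated 8505c cells and 6.84 and 6.48 in 8505c cells with DMSO. LINC02009 had fitted responses of -3.25 ± 0.38 in CAL62 cells and 3.13 ± 0.38 in 8505c cells, and their difference was -6.38 ± 0.54. CRISPLD1, a secreted protein, was at 186 and 116 in treated CAL62 cells, 1651 and 1094 in CAL62 cells with DMSO, 3366 and 4226 in treated 8505c cells and 1633 and 1830 in 8505c cells with DMSO. CRISPLD1 fell by 3.19 ± 0.26 in CAL62 cells and rose by 1.13 ± 0.26 in 8505c cells, a line difference of -4.31 ± 0.37 (adjusted p = 0.0001, limma). DNAJC15, a mitochondrial co-chaperone, was at 346 and 186 in treated CAL62 cells, 741 and 533 in CAL62 cells with DMSO, 43.5 and 35.7 in treated 8505c cells and 2.28 and 6.48 in 8505c cells with DMSO. DNAJC15 had fitted responses of -1.31 ± 0.41 in CAL62 cells and 3.03 ± 0.41 in 8505c cells, and their difference was -4.33 ± 0.58. The groups of CRISPLD1 lay in opposite order in the 2 lines, with no overlap within a line. LINC02009 and DNAJC15 entered in 8505c cells through the treated libraries only, so their order there was set by the filter. In CAL62 cells their treated libraries lay below those with DMSO. PLLP, plasmolipin, had a difference of -5.72 ± 0.79 and the phosphodiesterase PDE7B one of -4.06 ± 0.47. FRRS1, a ferric reductase-like gene, had -3.91 ± 0.36 and fell in CAL62 cells by 3.65 ± 0.25. PDE7B and FRRS1 were called in all 8 fits without 1 library. NXPH2, a neurexophilin, was at 19.1 and 2.06 in treated CAL62 cells, 458 and 318 in CAL62 cells with DMSO, 10.6 and 13 in treated 8505c cells and 5.7 and 7.56 in 8505c cells with DMSO. NXPH2 had fitted responses of -5.61 ± 0.69 in CAL62 cells and 0.75 ± 0.69 in 8505c cells, and their difference was -6.35 ± 0.98. SCN2A, a neuronal sodium channel, had no read in treated CAL62 cells, at least 14.7-fold lower than the 30.8 and 71.1 with DMSO when 3 reads per library are set as the floor. The protein-coding gene AC008878.2 had no read in 8505c cells with DMSO, and treated 8505c cells were at least 5.74-fold higher on the same floor. KCNK3, a potassium channel, had 49 reads in treated 8505c cells against 2 with DMSO, a ratio of 21.9 (95% counting interval 5.76 to 186). KCNK3 entered in 8505c cells through the treated libraries only. Its fitted line difference was -6.53 ± 1.39.

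Among genes with positive differences, POU2F2, an octamer-binding factor, was at 394 and 743 in treated CAL62 cells, 147 and 150.5 in CAL62 cells with DMSO, 288 and 248 in treated 8505c cells and 834 and 848 in 8505c cells with DMSO. POU2F2 rose by 1.86 ± 0.26 in CAL62 cells and fell by 1.65 ± 0.26 in 8505c cells, a line difference of 3.50 ± 0.36 (adjusted p = 0.00018, limma). CD4, a co-receptor of T cells, had no read in CAL62 cells with DMSO and 38.3 and 91.8 in treated CAL62 cells, at least 19.2-fold higher on that floor. The 7 leukocyte markers, of which 2 reached 10 in CAL62 cells (CD68 and CD14) and PTPRC, CD3E and MS4A1 were at 0, summed to between 867 and 897 in treated CAL62 cells, against 1183 to 1479 in CAL62 cells with DMSO. Their part in the CD4 values was not tested. RASD1, a small GTPase induced by dexamethasone, was at 2782 and 14363 in treated CAL62 cells, 28.1 and 50.8 in CAL62 cells with DMSO, 34.1 and 36.5 in treated 8505c cells and 18.2 and 16.2 in 8505c cells with DMSO. Its line difference was 6.35 ± 1.28. RASD1 was called in 1 of the 8 fits without 1 library (that without replicate 1 of treated CAL62 cells), with differences from 5.17 to 7.54. LPAR6, a lysophosphatidic acid receptor, and MPP4, a scaffold protein, had differences of 4.87 ± 0.94 and 4.70 ± 0.83. Both entered in CAL62 cells through the treated libraries. SHC3, an adaptor of receptor kinases, had 3.26 ± 0.52. SHC3 lost its call without replicate 1 of treated 8505c cells (3.19), replicate 1 of 8505c cells with DMSO (3.20) or replicate 2 of 8505c cells with DMSO (3.33) and kept it in the other 5 of the 8 fits without 1 library.

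**Figure D4:**
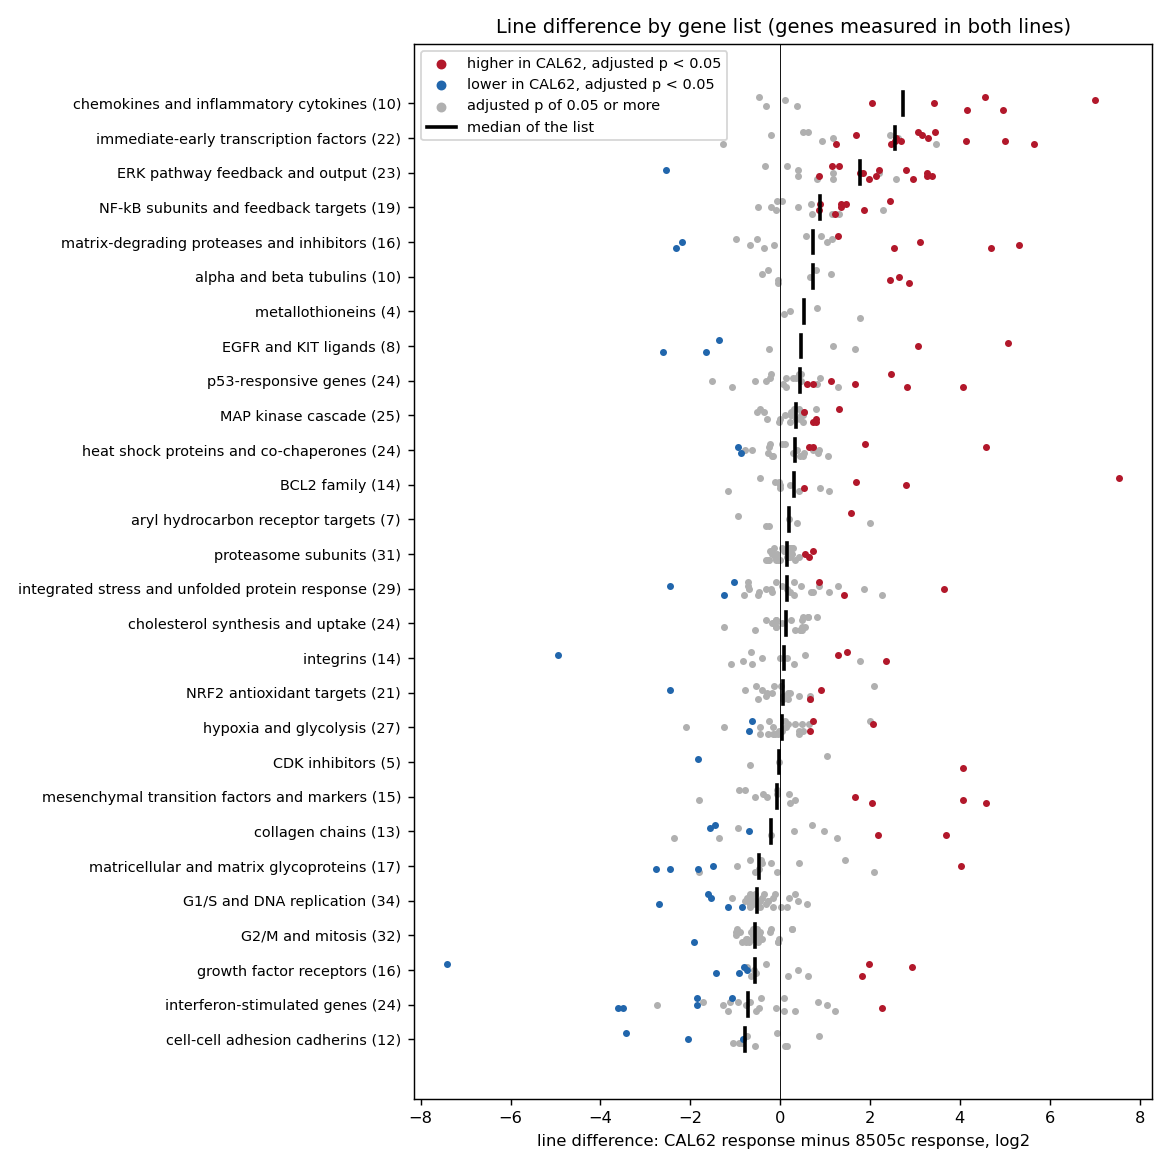
Line difference (CAL62 response minus 8505c response, log2) of each gene measured in both lines for 28 gene lists, ordered by the median (black bar), with genes past an adjusted p of 0.05 in red where higher and in blue where lower in CAL62. Chemokines, immediate-early factors and ERK feedback genes have medians of 2.73, 2.56 and 1.77, and cadherins and interferon-stimulated genes have medians of -0.78 and -0.71, beside -0.02 over all genes compared.

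For the remaining lists the counts stand beside 8.34% higher and 8.40% lower over all compared genes. Of 14 BCL2 family genes 4 were higher and none lower, and of 10 tubulins 3 and none, both above the background share of higher genes. The 4 include BCL2A1, which had to differ to enter, so the BCL2 share is a description. Without 1 library the BCL2 count was 3 or 4 and the tubulin count 2 to 4. Of 31 proteasome subunits 3 were higher and none lower, a share near the background, and of 14 integrins 3 and 1. Of 27 hypoxia and glycolysis genes 3 were higher and 2 lower, of 13 collagens 2 and 3, of 21 NRF2 targets 2 and 1, and of 5 CDK inhibitors 1 and 1. The hypoxia count was 6 higher without replicate 1 of treated CAL62 cells and 1 higher without replicate 2 of 8505c cells with DMSO. None of 4 metallothioneins and 1 of 7 aryl hydrocarbon receptor targets, TIPARP, differed. The medians of the integrins (0.08), NRF2 targets (0.05), hypoxia genes (0.03), proteasome subunits (0.15) and aryl hydrocarbon receptor targets (0.19) turned negative with equal library totals.

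The lines also shared a response. In both lines 533 genes rose and 541 fell, of which 33 and 72 differed between the lines, and for 304 and 373 the 95% interval of the difference lay within -1 to 1. Genes of cholesterol synthesis and uptake rose together in both lines. Of 24 measured members 20 rose and 1 fell in CAL62 cells, 18 rose and none fell in 8505c cells, and none differed between the lines at an adjusted p under 0.05. Over all compared genes 19.1% rose in CAL62 cells and 7.90% in 8505c cells. The 8505c count of 18 was 11 without replicate 2 of treated 8505c cells, 9 without replicate 2 of 8505c cells with DMSO and 6 with the 1 µM libraries in place of DMSO. In the fits without 1 library, 3 were higher in CAL62 cells without replicate 2 of treated 8505c cells, 1 was higher without replicate 2 of treated CAL62 cells and 1 was lower without replicate 1 of CAL62 cells with DMSO. With the 1 µM libraries in place of DMSO 5 were higher in CAL62 cells, with a median difference of 0.69. The median responses were 1.24 in CAL62 cells and 1.10 in 8505c cells, and the median difference of 0.14 turned to -0.06 with equal library totals. With 1 µM DEL-22379 the median responses of this list were 0.13 in CAL62 cells and 0.58 in 8505c cells. With U0126 they were -0.23 in CAL62 cells and 1.15 in 8505c cells. HMGCS1, which makes the precursor of mevalonate, was at 14617 and 11536 in treated CAL62 cells, 2353 and 1997 in CAL62 cells with DMSO, 10913 and 18043 in treated 8505c cells and 4124 and 2629 in 8505c cells with DMSO. The treated libraries lay above the DMSO libraries in both lines, and the difference of 0.49 had a 95% interval from -0.41 to 1.39. INSIG1, a sensor of sterols, had responses of 2.66 ± 0.35 in CAL62 cells and 2.22 ± 0.35 in 8505c cells. MSMO1, a C4-methylsterol oxidase, had 1.89 ± 0.25 and 2.03 ± 0.25 in the same order.

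ICAM1 was at 9360.4 and 7579.9 in treated CAL62 cells, 1761 and 2309.7 in CAL62 cells with DMSO, 2141 and 1601 in treated 8505c cells and 391 and 443 in 8505c cells with DMSO. It rose by 2.06 ± 0.22 in CAL62 cells and 2.15 ± 0.22 in 8505c cells, and the difference of -0.09 had a 95% interval from -0.76 to 0.58. PLA2G6, a calcium-independent phospholipase, and LLGL2, a polarity protein, rose in both lines with differences of -0.02 ± 0.43 and 0.01 ± 0.36. GBP3, a guanylate-binding protein, and PLCXD2, a phospholipase-like protein, fell in both lines. GBP3 had responses of -2.45 ± 0.23 in CAL62 cells and -2.58 ± 0.23 in 8505c cells. For 6278 of the 14682 genes (42.8%) the interval of the difference lay within -1 to 1, and the median interval reached 0.60 to either side.

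The same genes had median responses nearer 0 at the lower dose. Over the 189 genes called higher, the median responses to 1 µM DEL-22379 were 0.11 in CAL62 cells and -0.31 in 8505c cells, and to 10 µM they were 1.70 in CAL62 cells and -0.62 in 8505c cells. Over the 211 called lower, the medians at 1 µM were -0.10 in CAL62 cells and 0.13 in 8505c cells, and at 10 µM they were -1.75 in CAL62 cells and 0.49 in 8505c cells. With U0126 the 189 had medians of -0.29 in CAL62 cells and -0.71 in 8505c cells, and the 211 had 0.29 in CAL62 cells and 0.53 in 8505c cells. The genes were chosen on the 10 µM values and all 3 treatments share the DMSO libraries, so these medians are given side by side with no test.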

How the data were processed

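The authors deposited 1 table of normalized counts of polyadenylated RNA for 16 libraries (stranded mRNA libraries, paired reads, GRCh38 per the labels). These deposited signal values are gene counts scaled by a single factor for each library and kept to 2 decimals. For the aligner, the counting tool and the gene annotation, names were not given in the sources used here. All 60715 rows name a gene and all columns were mapped to a sample. Whole reads were recovered from the steps of the values within 0.02 reads for values up to 200, in all 8 libraries compared, and gave the depths. Intervals on reads cover counting error only.

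Values were fitted as log2(value + 1) with limma 3.58.1 (R 4.3.3, trend and robust) over all 16 libraries with 1 mean per group, for 19127 genes at 10 or more in at least 2 libraries. The fit has 8 residual degrees of freedom. The line difference is a contrast of the 4 group means. Genes with values from near-identical copies or overlapping genes were not separated. Named genes were the protein-coding called genes with the largest differences in each direction, the strongest opposite and shared responses, in each list the 4 genes of smallest p, and genes that the study itself names, and other list members were named where the account of a list needs them. The members and lists were chosen with earlier results of these data known. The script was tested on simulated data. Alternatives were other pseudocounts, filters, scalings, models, controls and thresholds, edgeR 4.0.16 and DESeq2 1.42.0 on recovered reads, a replicate block, and leaving out each library. The driver mutations of the lines are not reported here. Promoters were RefSeq sequences on GRCh38.p14, matched by symbol.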

Additional observations from a re-analysis of the deposited data

Results flagged for a closer look

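The response to 10 µM DEL-22379 differed between CAL62 and 8505c cells, by the test of the difference itself (limma, Benjamini-Hochberg adjusted p under 0.01 and a size above 1.5), for 400 of the 14682 genes, 189 of them higher and 211 lower in CAL62 cells. Of the 400, 39 reached the minimum of 10 in a line through 1 of its groups only, which leaves 361. For 170 genes the responses were in opposite directions at an adjusted p under 0.05 in each line and for the difference. Without the 9 of them that entered through 1 group only, 161 remain. The values below are CAL62 response minus 8505c response, for 56 called genes and for 15 more that had to differ to be compared. Among transcription factors, ERK-responsive genes and other signalling genes, the line difference (log2) was 6.35 for RASD1, 5.65 for FOS, 5.01 for EGR1, 3.50 for POU2F2, 3.29 for IER5, 3.27 for FOSL1, 3.26 for SHC3, 2.95 for SPRY4, 2.57 for JUN, 2.55 for CSRNP1, 2.47 for KLF6, 1.99 for EPHA2 and 1.77 for SPRED2. Among ligands, receptors and inflammatory genes, the line difference (log2) was 8.50 for IL1RL1, 7.01 for CXCL8, 5.14 for CD4, 5.07 for AREG, 4.87 for LPAR6, 4.56 for PTGS2, 4.15 for CXCL1, 3.42 for CXCL3, 3.07 for HBEGF, 2.93 for DDR2, 2.04 for LIF, 1.86 for NFKB2 and 1.81 for FGFR1. Among mesenchymal, matrix, cytoskeletal and scaffold genes, the line difference (log2) was 5.32 for MMP10, 4.70 for MMP1, 4.70 for MPP4, 4.59 for SNAI1, 3.69 for COL17A1, 2.87 for TUBB2A, 2.65 for TUBB3, 2.53 for SERPINE2, 2.36 for ITGA2, 2.04 for VIM and 1.67 for ZEB1. Among stress, survival and glycolysis genes, the line difference (log2) was 7.54 for BCL2A1, 3.65 for PPP1R15A, 2.82 for GADD45B, 2.81 for PMAIP1, 2.46 for GADD45A, 2.06 for PFKFB3, 1.69 for MCL1 and 1.66 for PLK3. Among interferon, cell cycle and stress genes that were lower in CAL62 cells, the difference was -3.61 for IFIH1, -3.49 for IFIT1, -2.70 for E2F2, -2.46 for SLC7A11, -1.93 for KIF20A, -1.86 for BST2, -1.85 for OAS3, -1.82 for CDKN2C and -1.60 for MCM6. Among matrix and adhesion genes that were lower in CAL62 cells, the difference was -4.94 for ITGB8, -2.76 for VCAN, -2.45 for CCN3, -2.31 for MMP16, -2.05 for PCDH7 and -1.55 for COL4A5. Of the other genes, the difference was -7.41 for KIT, -6.62 for AC008878.2, -6.53 for KCNK3, -6.38 for LINC02009, -6.35 for NXPH2, -5.72 for PLLP, -4.86 for SCN2A, -4.33 for DNAJC15, -4.31 for CRISPLD1, -4.06 for PDE7B and -3.91 for FRRS1. IL1RL1, BCL2A1, MMP10, CD4, LPAR6, MPP4, KIT, AC008878.2, KCNK3, LINC02009, NXPH2, PLLP, SCN2A, DNAJC15 and IFIH1 are these 15, and their values are a description. Of the other 56 genes, 28 kept the call in each of the 8 fits that left out 1 of the libraries compared, 7 in 4 to 7 of them and 19 in 1 to 3. Among the 19, COL4A5, PFKFB3 and PLK3 kept it in 1 fit, GADD45B and LIF in 2 and CXCL3 in 3. AREG and CCN3 kept it in none.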

How the results depend on the processing

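Of the 400 called genes, 189 were higher and 211 lower in CAL62 cells and 170 had opposite responses. With only the 8 libraries of the 4 groups in the fit, 108 were called, 71 higher and 37 lower, with 77 opposite. Limma without trend and robust called 244, 113 higher and 131 lower. EdgeR on recovered reads called 206, 107 higher and 99 lower, with 92 opposite, of which 192 were among the 400, and DESeq2 called 553, of which 364 were among the 400. With the 1 µM libraries in place of DMSO 203 were called, 83 higher and 120 lower, with 73 opposite. At an adjusted p under 0.05 with no size threshold 2457 were called, 1224 higher and 1233 lower. Leaving out 1 library at a time gave 195 to 537 called genes, 87 to 252 higher, 101 to 285 lower and 53 to 265 opposite. Pseudocounts of 0.1 and 5 gave 356 and 433, equal library totals gave 439 (29.2% higher in CAL62 cells), quantile normalization gave 411 and array weights 288. Where no cause is evident from fewer libraries or genes, the cause was not tested.

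Replicate numbers are shared across groups in the labels. The deviations of same-numbered libraries correlated at 0.22 to 0.504 in CAL62 cells and 0.0876 to 0.122 in 8505c cells over all genes tested, and at 0.275 to 0.815 in CAL62 cells and 0.209 to 0.356 in 8505c cells over genes with a mean above 100. With 2 replicates per group, and no source that ties a number to a shared day or culture, the numbers are not taken to pair the libraries. A replicate block within each line called 673 genes, 314 higher and 359 lower, with 466 opposite, and a replicate block over both lines gave 298 opposite and 532 called.

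None of the 71 called named genes changed sign at any setting tried, while genes named for a shared response, with differences near 0, such as LLGL2, PLA2G6, ICAM1, MSMO1 and GBP3, had either sign. Under equal library totals 9 named genes passed their threshold no longer and 3 newly passed, and with only the 8 libraries 37 no longer passed. Of the 56 called named genes that did not enter through 1 group only, 28 were called in all 8 fits without 1 of the libraries compared. With 2 libraries per group, a difference within about 1 log2 unit was often not detectable.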
